A study of Oryza sativa with 16 samples.

Results

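The comparison described here set IR64 roots grown with low nitrogen under low water (N-W-) against IR64 roots grown with high nitrogen under the same low water (N+W-). IR64 is a high-yielding indica rice variety, and N22, the other genotype of the study, is a drought-tolerant aus variety. Both IR64 groups came from 21-day-old plants in pots of vermiculite and perlite with ammonium nitrate as the sole nitrogen source. Both were given less water from day 15 to day 21. The N-W- plants had in addition been held at low nitrogen from the start, so the labelled difference between the groups is the nitrogen supply. The study reported no significant fall in leaf relative water content at N+W-. It also reported a lower root fresh weight of IR64 at N-W- than at N+W-. The low watering is thus shared, but an equal water deficit in the plants of both groups is not established. The well-watered root groups used beside them, N-W+ and N+W+, are labelled as 15 days old, while the study's methods give 21 days for every group, so by the labels water level and age cannot be told apart. Root RNA of 3 biological replications was pooled into 1 library a side, which leaves no replicate error within the pair. The libraries were 2 of 16 in the series, and 23468 of the 37849 genes in the files reached 1 CPM (a gene's reads scaled to library depth) in at least 1 of them and form the set described. The study addressed how rice responds when nitrogen and water are short together, and this pair gives the nitrogen part of that in IR64 roots at low water. In the labels the treatment text pairs 0.4 mM ammonium nitrate with nitrogen stress and 0.08 mM with normal supply, which is the reverse of the group names. The study's methods give 0.08 mM for N- and a higher concentration for N+, the order of the group names. The nitrogen level is therefore given here by the group names.

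Rice roots take up nitrate and ammonium through separate transporter families. At low external nitrate the high-affinity NRT2 proteins work with a small partner protein, NAR2, while ammonium enters through AMT proteins and urea through DUR3. Roots supplied with nitrate also use NRT1.1B, a transporter that senses nitrate, and NIGT1, a repressor induced by nitrate that shuts off starvation genes. Plants short of water accumulate late embryogenesis abundant (LEA) proteins and dehydrins, such as the RAB proteins, under the control of abscisic acid.

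The N-W- library held 10555538 exon reads and the N+W- library 10374708, within the 8272195 to 13675454 of the 8 root libraries, and 83.5% and 83.3% of them were uniquely mapped. CPM levels are of exon reads after TMM scaling over the 8 root libraries (factors 0.94 in N-W- and 1.15 in N+W-), which moved every log2 ratio by 0.288 relative to plain library totals. Both libraries carried root markers and almost no leaf RNA: the 4 root markers summed to 1078 CPM of the library total in N-W- and 3207 CPM in N+W-, and the 6 green shoot markers to 23.4 and 21.1 CPM, against 24386 to 96948 CPM in the IR64 shoot libraries. The 10 seed storage genes summed to 0.284 and 0.289 CPM. The 4 markers of shoot meristem and young stem stood apart, with 172 CPM in N-W- and 57.7 CPM in N+W-, against 30.6 CPM in IR64 N-W+ roots, 90.5 CPM in IR64 N+W+ roots and 26.6 to 40.1 CPM in the N22 roots. In the IR64 shoot libraries these markers summed to 0.634 to 23.5 CPM, below every IR64 root library. In the N22 shoot libraries they summed to 0.293 to 42.1 CPM. All 4 of these markers had reads in both libraries of the pair. Such markers move with several results below, and their part in them was not tested. In pooled organs, fewer cells of a type and less RNA per cell cannot be told apart.

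A gene was counted as higher or lower when its log2 ratio of N-W- over N+W- went beyond 2. By that rule 1237 genes (5.27%) were higher and 1300 (5.54%) were lower in N-W- roots, while 68.5% of the genes lay within a log2 ratio of 1. The split depended on scaling: when plain totals replaced TMM, 937 genes were higher and 1757 lower, so the share higher was 34.8% instead of 48.8%. For 1096 of the genes (607 higher and 489 lower) the 95% Clopper-Pearson counting interval also lay wholly beyond the rule. These intervals cover counting error only, since the reads carry no molecular identifiers and the libraries no replicates. No read of 260 of the higher genes was seen in N+W- and no read of 226 of the lower genes in N-W-, and for those only a minimum fold is given, set from a floor of 3 reads. At the threshold itself RLCK103 (2.0001, 708 against 212 reads) fell just inside and OSHAP2H (1.999, 1800 against 540 reads) just outside, and among the lower genes Os05g0125500 (-2.0005, 74 against 357 reads) fell just inside and Os10g0401100 (-1.9986, 8 against 40 reads) just outside.

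**Figure D1:**
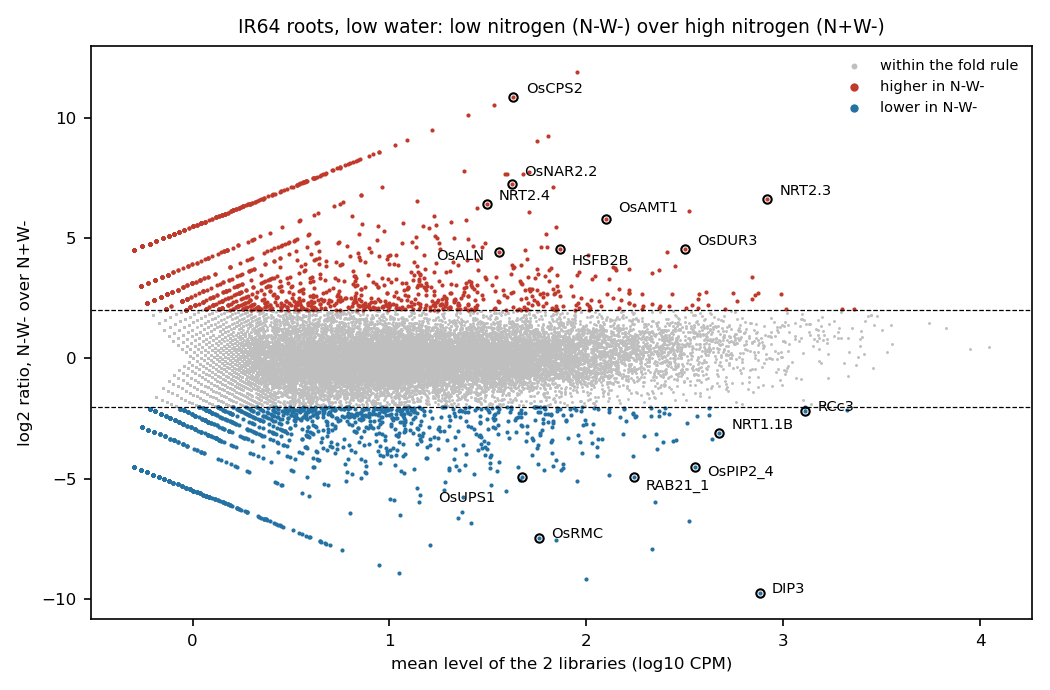
Log2 ratio of N-W- over N+W- IR64 roots (y axis) against the mean level of the 2 libraries (log10 CPM, x axis) for the 23468 genes, 1 point a gene, red where higher and blue where lower by more than a log2 ratio of 2 (dashed lines). NRT2.3 lies far above the band at a high level, and DIP3 is the lowest point among the abundant genes.

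All the genes for high-affinity nitrate uptake were higher in N-W- roots. NRT2.3, a high-affinity nitrate transporter (chromosome 1, 29188850 to 29190936), had 1642 CPM in N-W- and 16.4 CPM in N+W- roots, a log2 ratio of 6.64 (6.44 to 6.86). OsNAR2.2, a NAR2 partner protein, had 83.3 CPM in N-W- and 0.504 CPM in N+W- roots (log2 ratio 7.25), and NRT2.4 had 61.7 and 0.672 CPM (log2 ratio 6.43). The NRT2 and NAR2 list had 6 members and all 6 passed the fold rule upward, with a median log2 ratio of 5.06 against -0.03 over all genes. NAR2.1, the partner of the main root transporters, had 1184 CPM in N-W- roots, against an already high 214 CPM in N+W- roots, a log2 ratio of 2.47 (2.41 to 2.53). Per length it was the most abundant of the list in N-W- roots, with 426 RPKM, ahead of NRT2.3 with 270 RPKM and NRT2.2 with 243 RPKM. NRT2.2 had 1270 CPM in N-W- and 122.6 CPM in N+W- roots, and NRT2.1 had 434 and 33.6 CPM. NRT2.1 and NRT2.2 lie side by side on chromosome 2 (655324 to 657243 and 667264 to 669053) and share most of their reads, since 14.5% and 7.99% of their exon reads were unique, so the split between them is uncertain. With unique reads alone their log2 ratios were 3.73 and 3.50.

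Among the 9 ammonium transporter genes 1 passed the rule, upward (11.1%, against 5.27% of all genes). OsAMT1 (Os02g0620500) had 248 CPM in N-W- and 4.37 CPM in N+W- roots, a log2 ratio of 5.81 (5.43 to 6.25). Its reads were 5.9% unique, and the ratio was 5.27 with those alone. AMT1_1 had 53.8 and 14.4 CPM (log2 ratio 1.90) and AMT1_2 had 265 and 120 CPM (1.14), both below the rule. OsAMT2_1 was the member with the lowest ratio, -1.97, at 2.22 CPM in N-W- and 8.82 CPM in N+W- roots. The list's median was 0.86.

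All 3 genes that handle urea and ureides passed the rule, 2 upward and 1 downward, against 5.27% and 5.54% of all genes. OsDUR3, which carries urea into the root, had 606 CPM in N-W- and 25.8 CPM in N+W- roots (log2 ratio 4.55, 4.39 to 4.72). OsALN, an allantoinase that breaks down the nitrogen-rich ureide allantoin, had 68.6 and 3.11 CPM (log2 ratio 4.45, 3.99 to 4.98). OsUPS1, a ureide permease that moves allantoin between cells, went the other way, with 2.92 CPM in N-W- and 91.4 CPM in N+W- roots (log2 ratio -4.94). So the gene that degrades allantoin was higher while the gene that transports it was lower in the same library.

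Of the 23 NPF, NRT1 and PTR genes, 21 reached 1 CPM, and the median was 0.30. Of the 21, 3 were higher (14.3%, against 5.27% of all genes) and 2 lower (9.52%, against 5.54%). NRT1.1B had 98.7 CPM in N-W- and 846 CPM in N+W- roots (log2 ratio -3.10, -3.20 to -3.01), 1 of the 5 largest drops in CPM among genes past the rule. The other 4 members past the rule were scarce: OsNRT1.2 had 18.9 CPM in N-W- and 4.28 CPM in N+W- roots, OsPTR3_2 had 4.94 and 0.588 CPM, OsNRT1.1C had 1.71 and 0 CPM, and OsPTR5 had 0.202 and 1.26 CPM. The abundant members were within the rule. OsNPF2.4 had 362 CPM in N-W- and 563 CPM in N+W- roots, and OsNRT1.1A had 444 and 361 CPM. Members of this list therefore lay on both sides of 0, unlike those of the NRT2 list.

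The genes for reducing nitrate and fixing ammonium stayed within the rule with 1 exception. Of 19 genes on the list 16 reached 1 CPM, with a median log2 ratio of 0.17 and a range of -1.96 to 2.71. Above 0 were 8 of them and below 0 the other 8. By the rule 0 were lower and 1 was higher (6.25%, near the 5.27% of all genes). That gene was OsASNase2, an asparaginase that frees ammonium from asparagine, with 285 CPM in N-W- and 43.6 CPM in N+W- roots (log2 ratio 2.71, 2.57 to 2.85). Nitrate reductase OsNIA1 had 389 and 298 CPM, nitrite reductase NiR had 298 and 531 CPM, and the cytosolic glutamine synthetase OsGS1_1 had 388 and 410 CPM. The 2 asparagine synthetase genes pointed in opposite directions, ASN with 57.7 CPM in N-W- and 16.5 CPM in N+W- roots (log2 ratio 1.81) and ASN1 with 47.1 and 169 CPM (-1.84).

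Among the 5 regulators, the 2 past the rule were lower (40.0% of the list, against 5.54% of all genes). NIGT1 had 22.9 CPM in N-W- and 135 CPM in N+W- roots (log2 ratio -2.56), and OsACTPK1, a kinase that acts on ammonium transport when ammonium is ample, had 1.41 and 22.7 CPM (-3.96). OsLBD38, of a family known in Arabidopsis as repressors of nitrate genes, had 276 and 91.8 CPM (1.59), OsBT had 450 and 189 CPM (1.25), and OsLBD37 had 50.1 and 41.9 CPM (0.26). NIGT1, OsACTPK1 and the nitrate sensor NRT1.1B were therefore low together in N-W- roots.

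**Figure D2:**
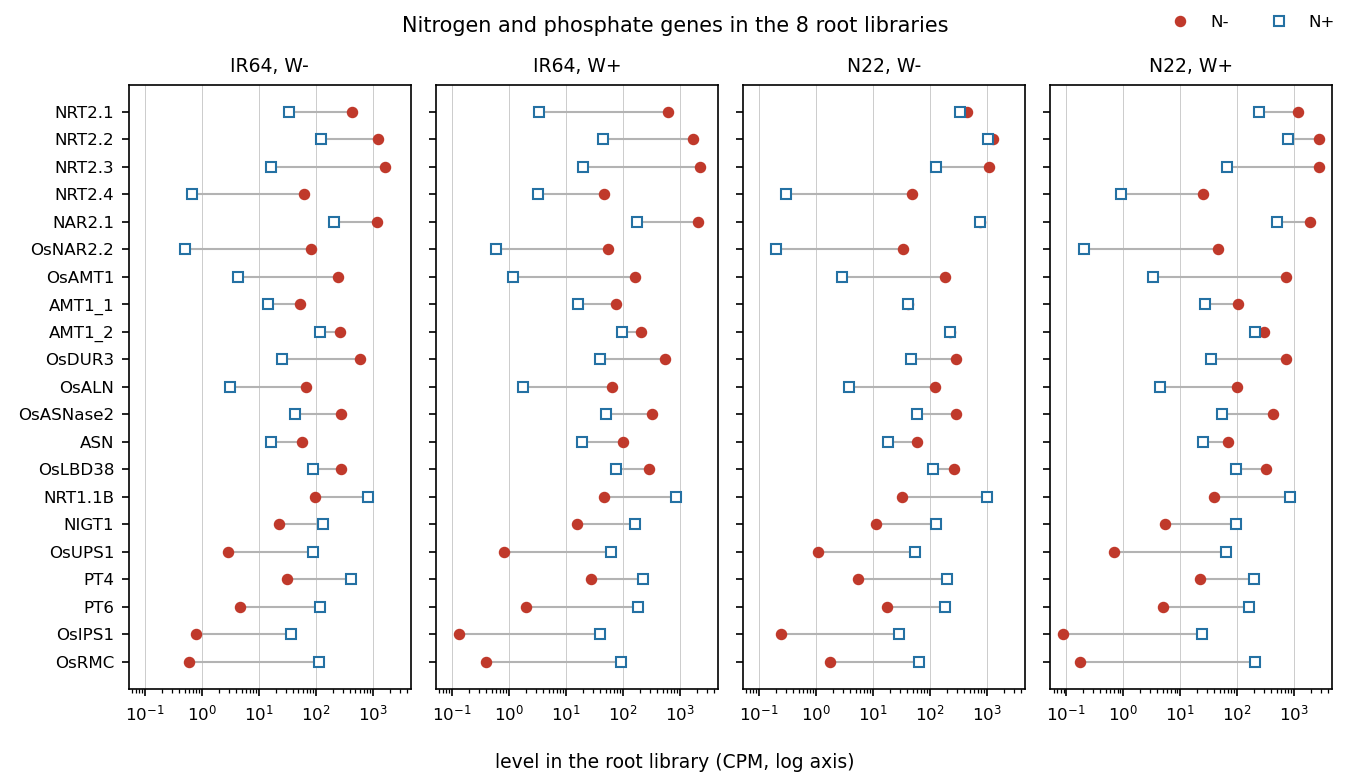
Level of 21 nitrogen, phosphate and iron genes (CPM, log axis) in the 8 root libraries, 1 panel for each genotype and water level, with N- as filled red circles and N+ as open blue squares. In the IR64, W- panel NRT2.3 stands at 1642 CPM in N-W- and 16.4 CPM in N+W-, and OsIPS1 and OsRMC at the bottom lie at 0.806 and 0.605 CPM in N-W-.

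Of 39 genes of the phosphate starvation response at 1 CPM, 15 were lower in N-W- roots (38.5%, against 5.54% of all genes), although phosphate supply was not a treatment. When phosphate is short, plants raise phosphate transporters (PT), secreted acid phosphatases (PAP), SPX proteins that sense phosphate, and the non-coding RNA OsIPS1. OsIPS1 had 0.806 CPM in N-W- and 37.2 CPM in N+W- roots (log2 ratio -5.45, -6.75 to -4.54). PT4 had 31.1 and 426 CPM (-3.77), PT6 had 4.64 and 118 CPM (-4.65), and OsPAP10c, an acid phosphatase, had 20.3 and 209 CPM (-3.37). The list had 46 members in all, and 1, OsPT26 at 3.63 CPM in N-W- and 0.42 CPM in N+W-, was higher. The median of those at 1 CPM was -1.05. Not every SPX gene passed the rule: OsSPX5 had 2.92 CPM in N-W- and 40.1 CPM in N+W- roots, and OsSPX1 had 21.6 and 87.2 CPM, but OsSPX2 had 29.3 and 47.2 CPM (-0.69). Several PT genes share reads with close copies, with 22.1% of PT4 reads unique.

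OsRMC, a receptor-like protein tied to root curling and iron uptake, was at 0.605 CPM in N-W- and 115 CPM in N+W- roots (log2 ratio -7.46, -9.02 to -6.44). It was the 1 lower gene (4.35%, against 5.54% of all genes) of the 23 on the iron list at 1 CPM. Higher were 2 of the 23 (8.70%, against 5.27%), YSL18 and OsYSL11, both under 5 CPM. The nicotianamine synthases OsNAS1 and NAS2, which make the precursor of rice iron chelators, had 1607 and 548 CPM in N-W- and 2680.0 and 1218 CPM in N+W- roots (-0.74 and -1.15), and the iron regulator OsIRO2 had 622 and 255 CPM (1.29). No sulfate transporter of 12 passed the rule. Of 27 potassium transport genes 3 were higher (11.1%, against 5.27% of all genes) and 2 lower (7.41%, against 5.54%). The 4 most read of those past the rule were under 9 CPM in each library.

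Of 23 dehydrin and LEA genes at 1 CPM, 10 were lower in the N-W- library (43.5%, against 5.54% of all genes), although both libraries came from plants given little water. RAB21_1, an abscisic acid-responsive dehydrin (chromosome 11, 15320288 to 15321526), had 10.9 CPM in N-W- and 337 CPM in N+W- roots (log2 ratio -4.95, -5.24 to -4.68). RAB21_2 had 2.62 and 67.9 CPM (-4.67), Rab16A had 6.05 and 99.5 CPM (-4.03), and OsLEA3-1 had 21.7 and 220 CPM (-3.34). RAB21_1, RAB21_2, RAB16B and Rab16A lie within 1 short stretch of chromosome 11 and all 4 were lower. OsLEA25 was among the 10 lowest ratios of the pair, at 0.101 and 31.9 CPM (-7.77). The list had 31 members in all, none was higher, and the median was -1.69, although 6 of the 23 had ratios above 0. At ample water in IR64, 2 LEA genes were higher and 2 lower of 23, against 2.54% and 5.07% of all genes there. RAB21_1 had 179 CPM in N-W+ and 96.1 CPM in N+W+ roots there and OsLEA3-1 had 230 and 137 CPM, log2 ratios of 0.90 and 0.74 that are within the rule. Others kept the order they had at low water, with ratios of -2.83 for OsLEA10, -0.65 for OsLEA25 and -0.43 for Lea14A. In N22 at low water 16 of 28 LEA genes were lower, against 3.79% of all genes there, and 0 higher. RAB21_1 had 11.3 CPM in N-W- and 1483 CPM in N+W- roots of that pair.

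Of 53 heat shock genes at 1 CPM, 12 were higher in N-W- roots (22.6%, against 5.27% of all genes). HSFB2B, a heat shock transcription factor of class B, had 141 CPM in N-W- and 5.88 CPM in N+W- roots (log2 ratio 4.57, 4.23 to 4.95), and OsHsfA6a, of class A, had 117 and 12.4 CPM (3.23). OsHsp71.1, a cytosolic HSP70 chaperone, had 1685 and 265 CPM (2.67) and was 1 of the 5 largest gains in CPM among genes past the rule. OsHsp24.1, a small heat shock protein, had 233 and 40.7 CPM (2.51). The list had 58 members in all. Of the 12 higher genes 9 were transcription factors, 2 genes were lower (OsHsp18.0 and the factor OsHsfA7), 15 had ratios below 0, and the median was 0.75. HSFB2B, OsHsfA6a, OsHsp71.1 and OsHsp24.1 also had higher levels in N22 at low water, where HSFB2B had 235 CPM in N-W- and 8.33 CPM in N+W- roots, while at ample water HSFB2B had 17.4 CPM in N-W+ and 5.77 CPM in N+W+ roots of IR64.

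Aquaporins, the water channels of plasma membrane (PIP) and vacuole (TIP), were lower in N-W- roots for 8 of 32 genes at 1 CPM (25.0%, against 5.54% of all genes). OsPIP2_4 had 29.6 CPM in N-W- and 683 CPM in N+W- roots (log2 ratio -4.53, -4.70 to -4.36), with 38.8% of its reads unique. OsTIP2_2 had 49.9 and 523 CPM (-3.39), OsTIP2_1 had 22.5 and 189 CPM (-3.07), and OsTIP1_2 had 508 and 2087 CPM (-2.04). The list had 40 members in all, and 1, OsTIP4_2, was higher. The median was -0.98, and 11 of the 32 had ratios above 0.

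**Figure D3:**
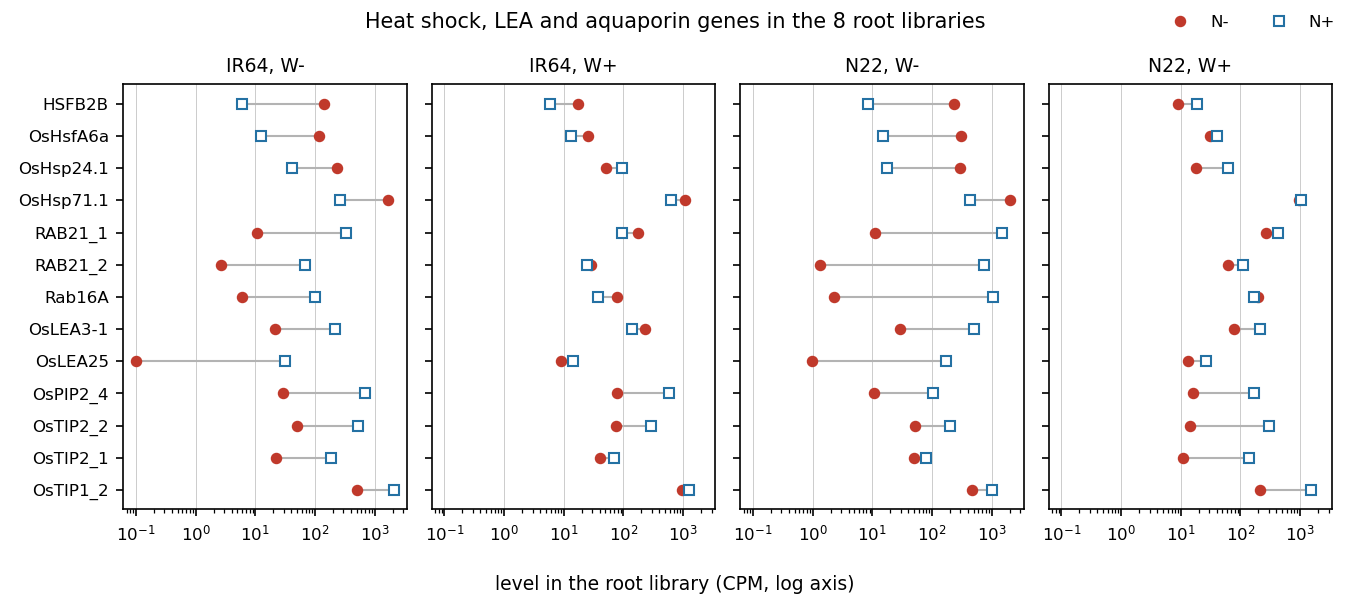
Level of 13 heat shock, LEA and aquaporin genes (CPM, log axis) in the 8 root libraries, with N- as filled red circles and N+ as open blue squares. In both W- panels the 4 heat shock genes lie higher and the 5 LEA and dehydrin genes lower at N-, and in the IR64, W+ panel RAB21_1 lies higher at N-, at 179 CPM against 96.1 CPM.

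The list for diterpenoid defence compounds was built from gene symbols and IDs, and a defence role of each member was not checked. Of its 16 genes at 1 CPM, 8 were higher in N-W- roots (50.0%, against 5.27% of all genes). Of these 8, only CYP76M1 reached 1 CPM in N+W- roots. The others entered the count through N-W- alone and could not have been lower. OsKSL10, CYP99A2 and CYP76M6 had just 14, 20 and 36 reads in N-W- roots and no read in N+W- roots. OsCPS2, which makes ent-copalyl diphosphate for phytocassane diterpenoids (chromosome 2, 21841092 to 21847545), had 85.3 CPM in N-W- and no read in N+W- roots, at least 338-fold higher. CYP76M5 had 33.9 and 0.672 CPM (log2 ratio 5.56), CYP76M8 had 15.2 and 0.588 CPM (4.59), and the synthase gene OsKS7 had 31.0 and 0.672 CPM (5.44). These genes, with Oscyp71Z6 and CYP76M6, lie between positions 21662608 and 21906238 of chromosome 2 (IRGSP-1.0), in the known diterpenoid cluster. OsKS7 and Oscyp71Z6 are not on the list. Not all genes of this stretch passed the rule: OsCYP76M7_1, a list member, had 27.6 CPM in N-W- and 9.41 CPM in N+W- roots (1.55). The list had 18 members in all, and none was lower. OsCPS1 and OsCPS4, within the rule, had 16.9 and 54.4 CPM in N-W- and 18.9 and 18.3 CPM in N+W- roots. The median was 3.06, or 2.04 when members without a read were set at their minimum fold. CYP76M1, on chromosome 8, had 93.2 and 4.03 CPM (4.52) and was the member whose other root pairs were also positive, at 1.02, 3.24 and 1.99. The rest did not repeat: OsCPS2 had 0.27 CPM in IR64 N-W+ and 39.3 CPM in IR64 N+W+ roots, the reverse order, and 0 to 1.44 CPM in the 4 N22 roots.

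Of the 9 genes on the hypoxia and fermentation list 4 were higher (44.4%, against 5.27% of all genes) and 0 lower. Of these, Adh3 and pdc1* reached 1 CPM in N-W- roots alone. Adh2* had 705 CPM in N-W- and 103 CPM in N+W- roots (log2 ratio 2.77), Adh3 had 48.0 and 0.84 CPM (5.76), and the pyruvate decarboxylase pdc1* had 12.1 and 0.924 CPM (3.65). Sub1B, an ethylene response factor of the Submergence 1 locus, had 101 and 1.43 CPM (6.10). ADH1 was just under the rule with 245 and 62.2 CPM (1.98). In the other 3 root pairs the list's median lay between -0.285 and 0.236.

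Of the 4 meristem markers 3 reached 1 CPM in the pair. By the rule 2 of them, OSH1 and OSH15, were higher (66.7%, against 5.27% of all genes), and the third had a log2 ratio of 0.87. OSH1, a homeobox gene of the shoot meristem, had 8.57 CPM in N-W- and 0.084 CPM in N+W- roots, against 0 CPM in N-W+ and 5.77 CPM in N+W+ roots of IR64, and at most 0.12 CPM in N22 roots. OSH15 had 99.9 and 9.74 CPM in the pair, and 3.31 and 23.5 CPM in the IR64 pair at ample water. OsAsr2_1, of the abscisic acid, stress and ripening family, had 658 CPM in N-W- and 9.41 CPM in N+W- roots, against 13.2 CPM in N-W+ and 740 CPM in N+W+ roots. ACO3, an enzyme of ethylene synthesis, had 261 and 19.5 CPM in the pair, and 19.2 and 224 CPM at ample water. So these genes were high in IR64 N-W- and N+W+ roots and low in N+W- and N-W+ roots. In total 203 of the 1237 higher genes were lower by the rule in IR64 at ample water, and 73 of those 203 were under 1 CPM in both N22 low-water libraries, against 382 of all 1237 higher genes. The reverse, lower here and higher at ample water, held for 57 genes, among them OsTHI9 with 0.403 CPM in N-W- and 51.7 CPM in N+W- roots, against 53.8 CPM in N-W+ and 8.29 CPM in N+W+ roots. These examples were chosen after their values were seen.

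The hormone lists are set beside 5.27% higher and 5.54% lower over all genes. OsPIN9, an auxin efflux carrier, had 202 CPM in N-W- and 18.6 CPM in N+W- roots (log2 ratio 3.43), GH3-8, which conjugates auxin, had 984 and 189 CPM (2.38), and PIN10A had 22.5 and 0.756 CPM (4.81). Of 98 auxin genes 6 were higher (6.12%) and 4 lower (4.08%), near the shares over all genes. OsGA2ox7, a gibberellin-inactivating oxidase, had 40.4 and 0.756 CPM (5.66), and GASR1 had 25.8 and 3.02 CPM (3.07), the 2 higher of 12 gibberellin genes. OsPYL/RCAR4, an abscisic acid receptor, had 964 and 146 CPM (2.73), and of 78 abscisic acid and PP2C genes 3 were higher and 0 lower. Of 6 strigolactone genes, OsCCD8a had 110 and 17.0 CPM (2.69), SLB2 had 0 and 2.94 CPM, and D10, D27, HTD1 and SLB1 stayed within the rule. Among 34 jasmonate genes 4 were higher (11.8%) and 3 lower (8.82%), with LOX-3 at 31.3 and 134 CPM (-2.10). Of 25 cytokinin genes 1 was higher and 2 lower, each under 2 CPM in both libraries.

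Of 83 expansin and cell wall genes 16 were lower (19.3%, against 5.54% of all genes) and 2 higher, with a median of -0.82, and OsEXPB2, a wall-loosening expansin, had 25.6 CPM in N-W- and 117 CPM in N+W- roots (log2 ratio -2.19). Of 94 class III peroxidases 19 were lower (20.2%) and 8 higher (8.51%, against 5.27% of all genes), with prx54 at 88.2 and 439 CPM (-2.32). The 6 root hair genes had a median of -1.14 and none passed the rule. Of 51 phenylpropanoid genes 8 were higher (15.7%) and 2 lower (3.92%), with OsCAD8D, a cinnamyl alcohol dehydrogenase by name, at 18.4 and 0.42 CPM (5.31). RCc3, a root-specific gene and 1 of the 4 root markers, had 471 and 2125 CPM (-2.17), while LSI1, LSI2 and NRAMP5 lay between -0.32 and 0.35.

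Among transcription factors, 67 of 90 AP2/ERF and 60 of 80 WRKY genes had ratios above 0, against 50 of 100 bHLH genes. The median over all genes was -0.03. Such counts depend on scaling, as that median was -0.33 with plain library totals. ERF92 had 195 CPM in N-W- and 9.74 CPM in N+W- roots (log2 ratio 4.32), OsERF#061 had 308 and 23.3 CPM (3.72), and OsERF#141 had 90.5 and 14.9 CPM (2.59). By the rule 9 AP2/ERF genes were higher (10.0%) and 1 lower, with a median of 0.83. In WRKY 6 were higher (7.50%) and 3 lower (3.75%), near the 5.27% and 5.54% over all genes, with OsWRKY21 at 597 and 141 CPM (2.09). In bHLH 2 were higher and 10 lower, with a median of -0.01, and the 4 lower ones with most reads had at most 16.0 CPM. NAC5 had 624 and 113 CPM (2.46), 1 of 2 higher NAC genes of 63. Of 79 ribosomal protein genes 1, RPS18a, passed the rule, and its reads were 8.82% unique. Of 67 cell cycle and histone genes 3 did.

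Of the 2537 genes over the rule, 1753 carried no symbol. Among genes whose interval lay wholly beyond the rule, with at least 100 reads in the higher library, Os09g0392666 had 178 CPM in N-W- and no read in N+W- roots, at least 708-fold higher. OsPUB63, a U-box protein by name, had 32.8 CPM and no read, at least 130-fold higher. In the other direction DIP3 had 1.71 CPM in N-W- and 1518 CPM in N+W- roots (log2 ratio -9.75, -10.57 to -9.11), the lowest ratio of that set and 1 of the 5 largest drops in CPM among genes past the rule. Os03g0836800 had 1.71 and 427 CPM (-7.92). Of the 10 largest and 10 smallest ratios, Os01g0318400, Os07g0502550, Os03g0101400 and OsWD40-136 had no uniquely mapped read, and with unique reads alone their ratio was 0.00. Among genes past the rule the 5 largest gains in CPM were OsFbox072 (3697 and 882 CPM), Os02g0797600 (3207 and 782 CPM), OsHsp71.1, NRT2.3 and Os04g0571450, and the 5 largest drops, beside DIP3, RCc3 and NRT1.1B, were OsGSTF2, a glutathione S-transferase with 788 CPM in N-W- and 3436 CPM in N+W- roots, and OsTIP1_2.

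The other 3 root pairs of low over high nitrogen share no library with this one, and were set beside it. Among their own genes at 1 CPM, 2.54% were higher and 5.07% lower in IR64 at ample water, 2.36% and 3.79% in N22 at low water, and 2.34% and 5.61% in N22 at ample water. In N22 at low water 167 of the higher genes (13.5% of the 1237 here, 31.3% of those there) and 315 of the lower genes (24.2% and 36.8%) were shared, and 43 higher and 35 lower genes were opposite. In IR64 at ample water 110 higher (8.89% and 18.5%) and 223 lower genes (17.2% and 18.8%) were shared, against 203 and 57 opposite. Across genes the log2 ratios of the pair had a Pearson r of 0.00454 with IR64 at ample water (22405 genes), 0.402 with N22 at low water (21429 genes) and 0.453 with N22 at ample water (21399 genes). Genes of one library are not independent, so these are descriptions. The r was thus larger with both N22 pairs than with the other IR64 pair, a difference that was not tested. In this pair and no other, 920 of the 1237 genes were higher and 696 of the 1300 lower, and 382 of the 1237 and 334 of the 1300 were under 1 CPM in both N22 low-water libraries, where they could not be counted.

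**Figure D4:**
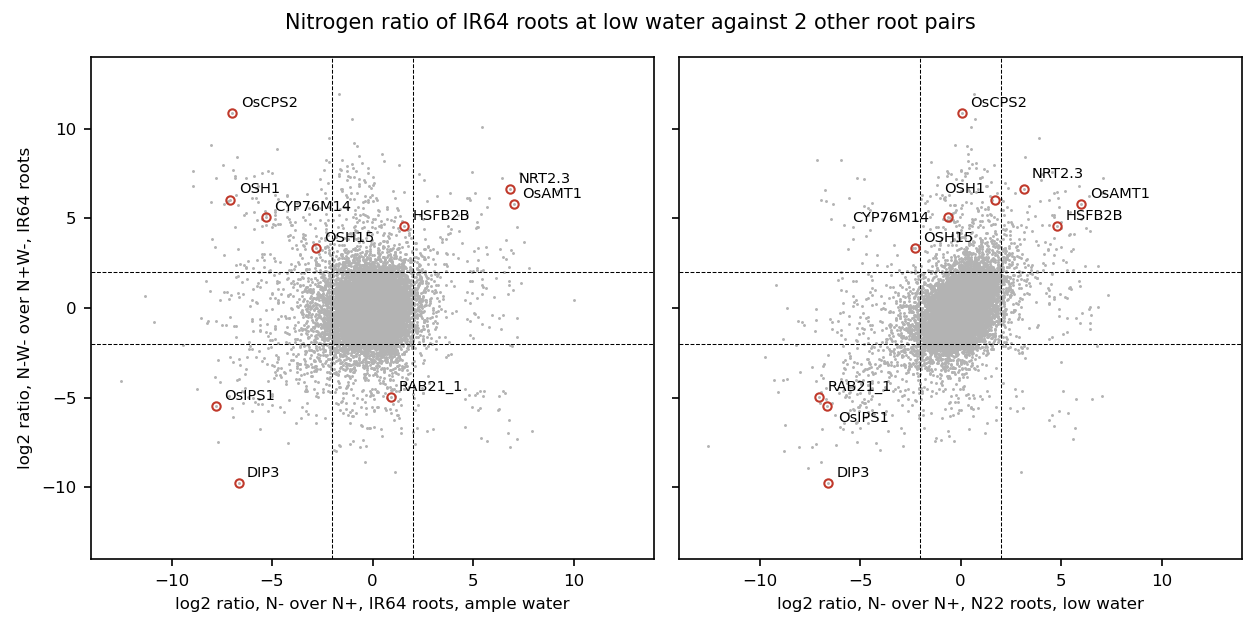
Log2 ratio of N-W- over N+W- in IR64 roots (y axis) against the log2 ratio of low over high nitrogen in IR64 roots at ample water (left) and N22 roots at low water (right), 1 point a gene at 1 CPM in both pairs, dashed lines at log2 ratios of -2 and 2. OsCPS2, OSH1, CYP76M14 and OSH15 lie in the upper left of the left panel, and RAB21_1 has an x value of 0.90 in the left panel and -7.03 in the right one.

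In all 4 pairs 28 genes were higher and 111 lower, and these include nitrogen and phosphate genes. OsNAR2.2, NRT2.4, NRT2.3, OsAMT1, OsDUR3, OsALN and OsASNase2 had log2 ratios above 2 in each pair, and OsUMAMIT9, of an amino acid transporter family, had 2.46, 2.32, 2.79 and 3.02. NRT2.1, NRT2.2 and NAR2.1 did not, since N22 N-W- roots held 456, 1278 and 773 CPM of them, against 339, 1037 and 760 CPM in N22 N+W- roots. Among the 111 lower genes 5 were named as purple acid phosphatases, 4 as SPX genes and 4 as glutathione S-transferases, and NRT1.1B, NIGT1, OsUPS1, OsIPS1, OsRMC and DIP3 were there too. The other genes of these families were not counted, so the family numbers cannot be set against the share over all genes. PR1A, a pathogenesis-related protein, had 1.61 CPM in N-W- and 76.4 CPM in N+W- roots of the IR64 pair, and its log2 ratios in the 4 pairs were -5.53, -4.63, -5.08 and -7.03.

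**Figure D5:**
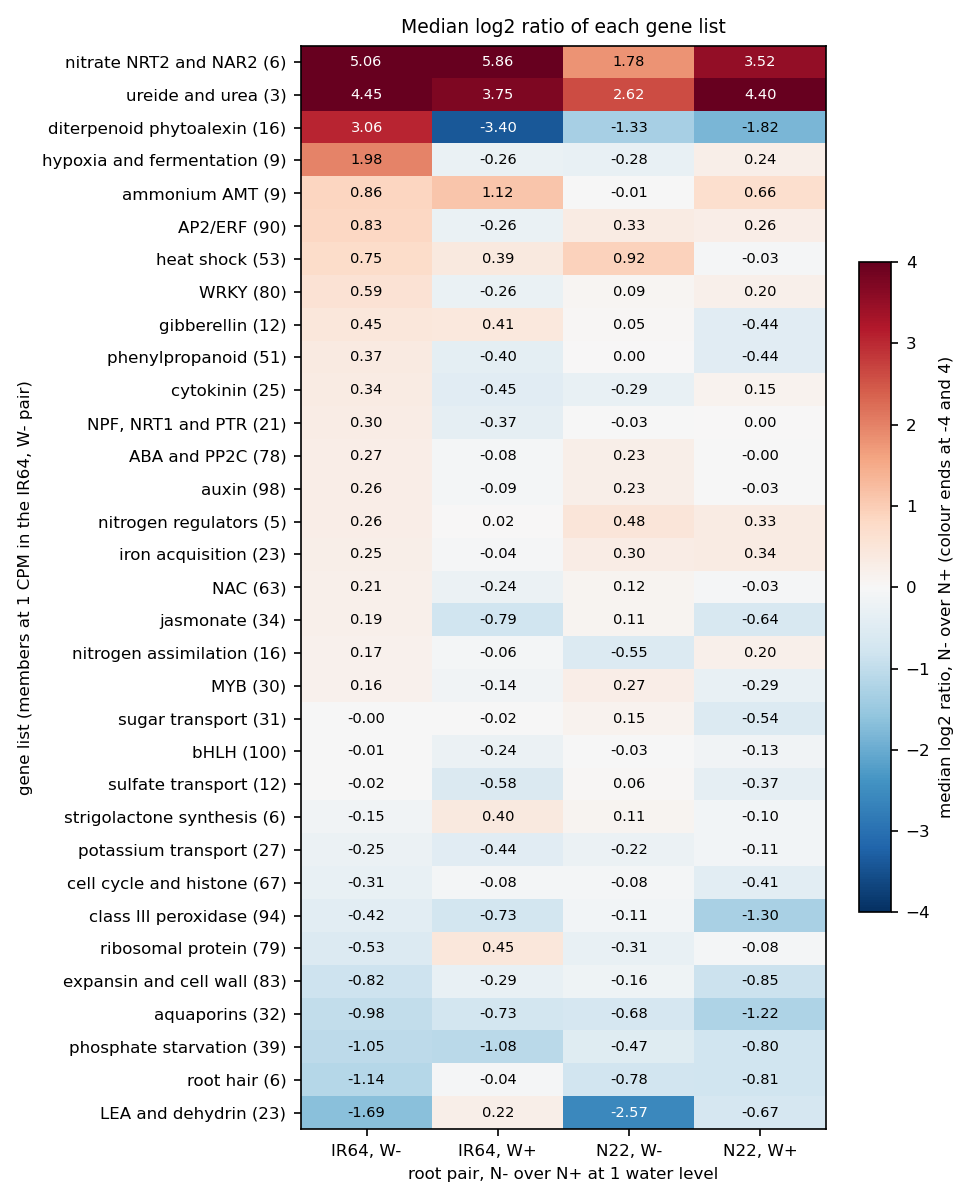
Median log2 ratio of each gene list (number of members at 1 CPM in the IR64, W- pair in brackets) in the 4 root pairs of low over high nitrogen, coloured from blue (lower) to red (higher). The diterpenoid list is at 3.06 in the IR64, W- column and -3.40 in the IR64, W+ column, and the LEA list at -1.69 and -2.57 in the W- columns against 0.22 and -0.67 in the W+ columns.

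A joint test gave the comparison its only replication, with IR64 and N22 as 1 pair each and all 8 root libraries in the fit (edgeR quasi-likelihood, genotype as covariate, 3 residual degrees of freedom). Of 24285 genes tested, 289 (1.19%) rose and 311 (1.28%) fell in N-W- relative to N+W- roots at an adjusted p of 0.05, and 586 of these 600 had the same sign in both genotypes. The fit counts disagreement between genotypes as error, so it favours genes of the same sign, and that number is no separate support. The fold rule in the IR64 pair was passed by 344 of them. OsNAR2.2 rose by a log2 of 7.31 (SE 0.45, adjusted p = 0.00143), NRT2.4 by 6.91 (SE 0.45, adjusted p = 0.00143), OsALN by 4.74 (SE 0.31, adjusted p = 0.00143) and ERF92 by 3.99 (SE 0.34, adjusted p = 0.00402). OsIPS1 fell by 5.96 (SE 0.39, adjusted p = 0.00143), OsUPS1 by 5.15 (SE 0.39, adjusted p = 0.00262), NRT1.1B by 3.91 (SE 0.49, adjusted p = 0.0136) and DIP3 by 7.83 (SE 0.85, adjusted p = 0.0121). These 8 genes kept their call with each of the 8 root libraries left out in turn.

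By list, the joint test called 11 phosphate genes lower of 41 tested, 7 LEA and dehydrin genes of 26, and 4 aquaporins of 32. It also called 6 class III peroxidases lower of 95, and the share lower over all genes tested was 1.28%. Called higher were 10 heat shock genes of 53, 7 AP2/ERF genes of 94, and 4 abscisic acid and PP2C genes of 80. The share higher over all genes tested was 1.19%. None of these lists had genes called in both directions. RAB21_1 fell by 5.94 (SE 0.67, adjusted p = 0.0122), OsLEA25 by 7.44, OsPIP2_4 by 3.91 and OsPAP10c by 2.95, and OsHsfA6a rose by 3.81 and CYP76M1 by 3.87 (adjusted p between 0.00577 and 0.00792), and each kept its call in every leave-out. OsLEA3-1 and RAB21_2 were called too, but lost their call in 6 of the 8 leave-outs, with largest adjusted p of 0.275 and 0.108. NRT2.3 (adjusted p = 0.0692), NRT2.1 (0.434), NRT2.2 (0.389), NAR2.1 (0.342) and OsACTPK1 (0.0814) were not called by edgeR. Of the genes in the diterpenoid and low-oxygen lists, Adh2* (0.106), Sub1B (0.177), CYP76M14 (0.421) and OsCPS2 (0.507) were not called either.

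Of the 59 genes chosen by the naming rule that the joint test called, 19 kept their call in every leave-out and 40 lost it in at least 1. Leaving out IR64 N+W- kept 27 of the 59 and leaving out IR64 N-W- kept 28, the fewest of the 8. OsDUR3 rose by 3.64 (adjusted p = 0.0194) and OsASNase2 by 2.49 (adjusted p = 0.0063), with adjusted p = 0.0762 and 0.0525 without IR64 N+W-. OsRMC fell by 6.30 (adjusted p = 0.0121) and had adjusted p = 0.0651 without IR64 N-W-. HSFB2B rose by 4.72 (adjusted p = 0.0206) and lost its call without any 1 of the 4 low-water libraries (adjusted p between 0.0768 and 0.159). OSH1 was called at adjusted p = 0.0372 and lost its call in 6 of the 8 leave-outs, with adjusted p = 0.848 without IR64 N+W-. OsAMT1 rose by 5.93 (adjusted p = 0.0252) and lost it in 5 of the 8 leave-outs, with a largest adjusted p of 0.0903. Of the 5 largest joint rises, Os09g0467700, Os12g0511400, Os09g0274025 and Os09g0390400 had reads almost only in IR64, and Os08g0510750 had none in IR64.

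Whether the nitrogen difference depended on water level was tested in the same fit, and by the labelled ages of 21 days at low and 15 days at ample water, water and age cannot be told apart in it. Of 24285 genes 1 (0.00412%) was called, Os12g0212100 on chromosome 12 (5892605 to 5901801), while 2858 had an unadjusted p under 0.05. In IR64 it had 12.8 CPM in N-W- and 0.168 CPM in N+W- roots, against 0.0675 CPM in N-W+ and 29.3 CPM in N+W+ roots, and in N22 at most 0.205 CPM. Its reads were 14.7% unique, and it was no longer called once any 1 of the 4 IR64 libraries was removed (adjusted p between 0.0946 and 0.365). RAB21_1 (adjusted p = 0.0895), OSH1 (0.0706), OsHsp24.1 (0.0787), HSFB2B (0.169) and OsCPS2 (0.419) were not called by edgeR in this test, while DESeq2 called 476 genes and unique reads 88. Whether it depended on genotype was tested with a genotype-by-nitrogen term, and edgeR called no gene (0%), with 293 at an unadjusted p under 0.05 and 4 called by DESeq2.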

How the data were processed

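Root RNA of 3 biological replications was pooled before library construction, and the libraries were sequenced as paired reads of 100 bases. Per the study's methods the authors trimmed reads with sickle and mapped and counted them in CLC Genomics Workbench version 12 (mismatch cost 2, length fraction 0.5, similarity fraction 0.8). The submitters' processing notes name IRGSP-1.0 and CASAVA. The deposited values used were raw counts of total exon reads per gene, in which reads mapped to several places are shared out, with unique exon reads and total gene reads as alternatives. RPKM values, computed by the authors per exon length and library size, served to compare levels between genes.

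The members, gene lists and tests were chosen with earlier results of these data known. Counts were scaled by TMM over 8 root libraries (edgeR 4.0.16, R 4.3.3). The pair's log2 ratio used a prior count of 0.5 and a minimum of 1 CPM in 1 of the 2 libraries, and its 95% interval was an exact Clopper-Pearson interval of the reads. The joint, nitrogen-by-water and genotype-by-nitrogen contrasts used edgeR's robust quasi-likelihood test with Benjamini-Hochberg adjustment at 0.05, with 3 residual degrees of freedom (2 for genotype by nitrogen). Of these, only the joint contrast was tried on simulated data. As 1 pooled library stands for each group, no p-value measures the spread between plants. Those of the joint and nitrogen-by-water contrasts rest on how treatment differences varied between the genotypes. Those of the genotype-by-nitrogen contrast rest on how the nitrogen difference varied with water within each genotype.

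Named genes were the 10 largest and 10 smallest ratios among genes whose interval lay beyond the fold rule with at least 100 reads in the higher library, the 5 largest gains and drops in CPM among genes over the rule, the 5 largest joint changes each way, the genes called in the other contrasts, all nitrogen genes, and the 4 most read members over the rule of each other list with its defining members. Others were chosen after their values were seen. Symbols are those of the files. The alternatives were DESeq2 1.42.0, other scalings, filters and read classes, and leaving out each library.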

Additional observations from a re-analysis of the deposited data

Results flagged for a closer look

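Os12g0212100 was the gene called in the test of whether the nitrogen difference in roots differed between low and ample water, levels that the labels also separate by age. Its log2 contrast, the nitrogen difference at low water minus that at ample water, was 14.45 (edgeR quasi-likelihood, adjusted p = 0.0058). The contrast came from the IR64 libraries, with 12.8 CPM in N-W- and 0.168 CPM in N+W- roots, and 0.0675 CPM in N-W+ and 29.3 CPM in N+W+ roots, while the 4 N22 libraries held between 0 and 0.205 CPM. The 4 shoot meristem and young stem markers summed to 172 CPM in N-W- and 57.7 CPM in N+W- roots of IR64. They summed to 30.6 CPM in N-W+ and 90.5 CPM in N+W+ roots of IR64. In the IR64 shoot libraries these markers were lower, at 0.634 to 23.5 CPM, and their part in this result was not tested. The call was lost when any 1 of the 4 IR64 root libraries was left out (adjusted p = 0.116 without N-W-, 0.0946 without N+W-, 0.193 without N-W+ and 0.365 without N+W+). With total reads over the whole gene the test called 0 genes, with 2803 at an unadjusted p under 0.05.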

How the results depend on the processing

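The pair has 1 library a side, so its counts carry no replicate error. Against 2537 genes over the fold rule, 4988 were counted with no filter on low counts, 1263 with at least 5 CPM, and 516 with deposited RPKM and a pseudocount of 1, which shrinks the ratios of scarce genes. Scaling by DESeq2 size factors gave 2439, TMM over the 2 libraries 2533, a prior count of 2 gave 2213, unique exon reads 1948, whole-gene reads 2474 and library totals 2694. The joint test called 600 genes with edgeR, 1840 with DESeq2 and 1024 with unique reads, and between 154 and 656 when 1 library was left out, the fewest without IR64 N+W- (154) and IR64 N-W- (164). Without a low-water library the contrast rested on 1 genotype for that treatment, assumed to vary like the others. The nitrogen-by-water test called 1 gene with edgeR, 476 with DESeq2, 57 with no filter, 88 with unique reads, 0 with whole-gene reads and between 0 and 40 when 1 library was left out, without Os12g0212100 whenever that library was an IR64 one. The genotype-by-nitrogen test called 0 genes with edgeR, with 293 at an unadjusted p under 0.05, 4 with DESeq2 and between 0 and 3 with 1 library left out. With unique reads the log2 ratios of Os01g0318400, Os07g0502550, Os03g0101400, OsWD40-136, Os04g0571450, Os09g0274025, OsHAK3, OsIPT5 and H3 were 0.00, as these genes hold no unique reads in the pair. The joint change of Os08g0510750 lay between -0.66 (without N22 N+W-) and 9.16 (without IR64 N+W-). For the other reversed or lost calls the cause was not tested. No paired analysis was possible because every library carries the replicate number 1, which pairs nothing beyond genotype, already a term of the joint fit. A minimum fold rests on a floor of 3 reads, so genes under that level in both libraries could not be told apart.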
